A study of Homo sapiens with 36 samples.

Results

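The RNA sedimenting with a pair of ribosomes, the disome fraction, was compared with the RNA sedimenting with a single ribosome, the 80S monosome fraction, in unmodified (WT) cells. The comparison used 6 of the 36 libraries of the series, the disome and 80S libraries of WT cultures 1, 2 and 3, paired by the replicate number of the labels, which is called the culture here. It covered the 7309 of 223367 Ensembl transcripts that reached 10 TPM in at least 3 of these 6 libraries. TPM is an abundance corrected for transcript length and scaled so that every library sums to 1000000. The cells were HUES6 of genotype WT, an established line of human embryonic stem cells, with the treatment labelled control. They were grown in FTDA, a defined pluripotency medium, and given cycloheximide at 100 ng/ml for 5 min before lysis. A second genotype of the same line, RBPMS KO, supplied 3 further disome and 3 further 80S libraries with the same treatment, which were read as other cultures. All libraries were made from equal amounts of Trizol-extracted RNA with a stranded mRNA kit and read as 75-base pairs. The labels do not say whether these were separate cultures, clones or days, so p-values measure the spread between these samples, which may be technical.

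Cycloheximide halts elongating ribosomes on their mRNAs, and a gradient then sorts the complexes by mass. An mRNA in the 80S fraction carries a lone ribosome, as is common for short coding sequences, for poorly initiated mRNAs and for ribosomes held at upstream reading frames. An mRNA in the disome fraction carries a pair of ribosomes, and heavier polysome fractions hold mRNAs that carry more ribosomes. Free RNA-protein particles of similar mass also sediment in the light fractions. With equal RNA in every library, the values give the composition of a fraction and not the amount of an mRNA in it.

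No transcript ID could be paired with a gene here, because 0 of the 59792 genes in the gene table used for naming carried an Ensembl ID. The cell type could therefore not be checked against its markers, and transcripts are described as groups, with 4 of them given by ID. Estimates of isoforms that share sequence can be divided between IDs, and 441 of the 7309 transcripts matched another transcript exactly in all 36 libraries.

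The 3 disome libraries differed among themselves more than the 3 80S libraries did. At 1 TPM or more, the disome libraries of cultures 1, 2 and 3 held 36186, 31058 and 24532 transcripts, against 27732, 26217 and 24917 in the 80S libraries. Cultures 1 and 2 thus held more transcripts in disome, and culture 3 held about as many in both fractions. The group means were 30592 ± 5841 transcripts in disome and 26289 ± 1409 in 80S (SD, n = 3 each). A two-sided exact permutation test, which did not use the pairing by culture, gave p = 0.4 (0.4 after adjustment over 5 measures). The 100 most abundant transcripts took 29.5%, 29.7% and 42.4% of TPM in the disome libraries, against 44.8%, 46.1% and 43.3% in the 80S libraries. All disome values lay below all 80S values, and the same exact test gave p = 0.1, which 3 against 3 samples cannot go below (0.25 after adjustment). The ERCC spike-in rows, synthetic RNAs added as standards, summed to 20.9, 14.8 and 19.7 TPM in disome and to 36.5, 31.9 and 18.5 TPM in 80S (exact permutation p = 0.3 on the log2 scale, adjusted 0.375). TPM keeps no sequencing depth, and the depth of these libraries is unknown.

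The disome library of culture 3 stood apart. Across the 7309 transcripts, Pearson's r of log2(TPM + 1) between the disome library and the 80S library of the same culture was 0.794, 0.849 and 0.927 in cultures 1, 2 and 3. With the Polysome1 library of the same culture, the disome library had r of 0.919, 0.922 and 0.690. In cultures 1 and 2 the disome library was therefore most like Polysome1, and in culture 3 it was most like its own 80S library. Between cultures, r was 0.836 for disome libraries 1 and 2, and 0.690 and 0.763 for culture 3 with cultures 1 and 2. The 80S library of culture 3 also correlated less well with the others, at 0.798 and 0.812 against 0.910 between cultures 1 and 2. These correlations run over transcripts, which are not independent replicates, and are given as a description. The main results are given with and without culture 3.

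**Figure D1:**
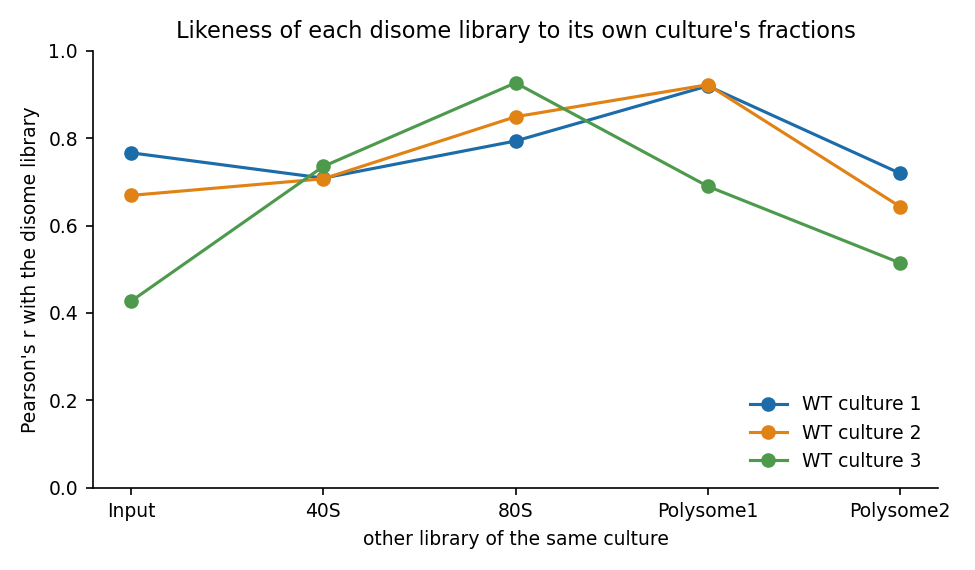
Pearson's r of log2(TPM + 1) over 7309 transcripts (vertical axis) between each WT disome library and the other libraries of its own culture (horizontal axis), with 1 line for each culture. Cultures 1 and 2 are highest with Polysome1 (0.919 and 0.922), and culture 3 is highest with 80S (0.927).

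Most transcripts were more abundant in disome than in 80S in cultures 1 and 2, and this was not seen in culture 3. The median difference, disome minus 80S on the log2(TPM + 1) scale, was 0.62, 0.66 and -0.03 in cultures 1, 2 and 3. The difference was above 0 for 75.8%, 79.1% and 46.9% of transcripts in the 3 cultures. A difference of 1 or more, a doubling on this scale, was reached by 2229, 2258 and 319 transcripts, and a difference of -1 or less by 604, 396 and 471. The number of transcripts lower by this amount was thus largest in culture 1 and smallest in culture 2. Many more were higher in cultures 1 and 2 than in culture 3. The mean of the 3 medians was 0.42 ± 0.39 (SD, n = 3). The sign of this median is tied to the scaling, since each library sums to the same total: over the 3 cultures the fitted median was 0.40 in TPM as deposited. It was 0.04 with quantile-normalized values, -0.04 with values scaled by the median of ratios and 0.98 with values scaled to the ERCC total.

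**Figure D2:**
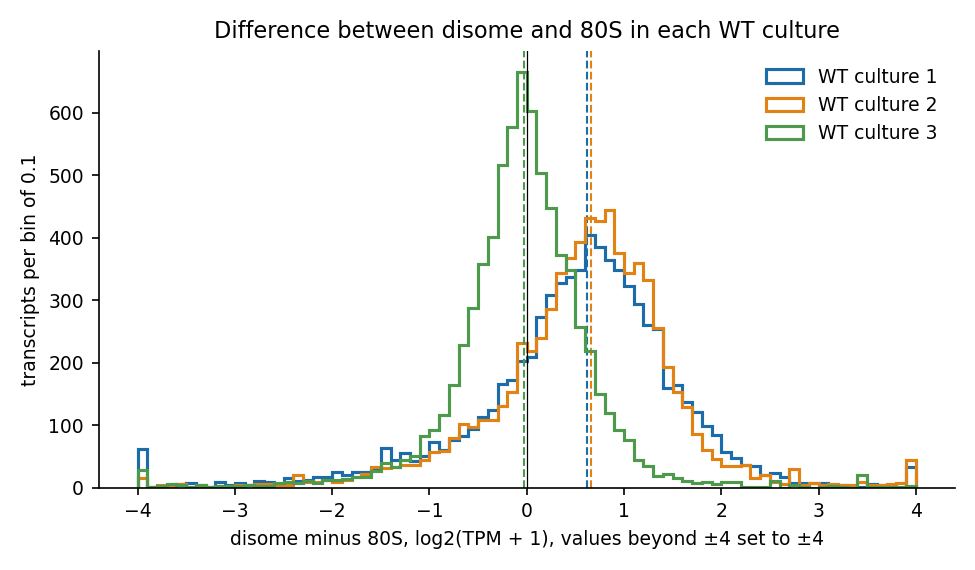
Number of transcripts (vertical axis, bins of 0.1) by the difference between disome and 80S on the log2(TPM + 1) scale (horizontal axis) in each WT culture. Dashed lines mark the medians of 0.62, 0.66 and -0.03 for cultures 1, 2 and 3, and the culture 3 curve is narrower and centred near 0.

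With all 3 cultures, no single transcript passed the test. Fitted to the 18 WT libraries with culture as a block, limma called 0 of 7309 transcripts higher and 0 lower (0% in each direction, Benjamini-Hochberg adjusted p under 0.05), and the smallest adjusted p was 0.1018. At an unadjusted p under 0.05, 990 transcripts (13.5% of those tested) were higher in disome and 100 (1.37%) were lower. With only the 6 libraries of the comparison in the fit, limma called 0 again, with 1057 higher and 236 lower at an unadjusted p under 0.05.

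The count rested on culture 3. Without it, limma called 2327 transcripts higher (31.8% of those tested) and 315 lower (4.31%), with median differences of 1.10 and -1.255 against 0.64 over all 7309. Without culture 1 and without culture 2 the count stayed at 0. The calls from cultures 1 and 2 also drew on the spread of the other WT fractions, since the 4 compared libraries alone gave 0 calls at an adjusted p under 0.05 and 2925 transcripts at an unadjusted p under 0.05. The direction of the calls followed the scaling. Of the calls from cultures 1 and 2, 88.1% were higher in TPM as deposited. The share was 46.1% with quantile-normalized values (563 higher and 658 lower), 30.6% with median-of-ratios values (273 higher and 620 lower) and 99.4% with ERCC-scaled values (5033 higher and 32 lower).

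Culture 3 gave values that the fit to cultures 1 and 2 had not used, although the filter had used them. A transcript below the filter level in every library of a fraction was tested only if every library of the other fraction reached it. This held for 183 transcripts that reached it in disome only, and for 27 in the monosome fraction only. The shares below were thus read in a culture that had helped to choose the tested transcripts. They were not recomputed on transcripts that reached the level in every library. Of the 315 transcripts called lower in cultures 1 and 2, 247 (78.4%) were also lower in disome of culture 3, against 52.3% of all tested transcripts, and their median there was -0.37 against -0.03 over all. Of the 2327 called higher, 1343 (57.7%) were higher in culture 3, against 46.9% of all, with a median of 0.09. The lower group was thus displaced further from all transcripts in culture 3 than the higher group. It already lay further from them in cultures 1 and 2, where its median was -1.255 and that of the higher group 1.10, against 0.64 over all. The displacements of the 2 groups in culture 3 are therefore not comparable. Read the other way, 122 transcripts were at least doubled in disome in cultures 1 and 3, and 90.2% of these were higher in culture 2, against 79.1% of all transcripts. For the 186 that were at least doubled in cultures 2 and 3, 60.8% were higher in culture 1, against 75.8% of all. Among transcripts lower by the same amount, 66.3% of the 92 chosen in cultures 1 and 3 were lower in culture 2, against 20.7% of all. Of the 77 chosen in cultures 2 and 3, 84.4% were lower in culture 1, against 24.2% of all.

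The libraries were next compared without a model, by asking whether all 3 disome values lay on one side of all 3 80S values. This held for 1126 transcripts with disome higher (15.4% of those tested) and for 216 with disome lower (2.96%). The 1126 transcripts took 15.4%, 14.8% and 11.1% of TPM in the disome libraries, against 5.94%, 5.81% and 7.81% in the 80S libraries. The 216 transcripts took 8.35%, 8.68% and 12.9% of disome TPM, against 23.4%, 26.6% and 19.3% of 80S TPM. The median level of the 216 was 27.8, 34.8 and 36.8 TPM in disome and 70.6, 77.1 and 62.7 TPM in 80S, and that of the 1126 was 36.1, 32.4 and 25.2 TPM in disome and 14.2, 15.2 and 17.2 TPM in 80S. These shares and levels follow from how the transcripts were chosen and describe them only. The balance of the 2 counts also followed the scaling, with 504 higher and 456 lower in quantile-normalized values, 484 and 502 in median-of-ratios values, and 1558 and 38 in ERCC-scaled values.

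Presence in one fraction and absence from the other was rare. A total of 4085 transcripts reached 10 TPM in all 6 libraries. Another 183 reached it in all 3 disome libraries and in no 80S library, and 27 in all 3 80S libraries and in no disome library. Both of these groups passed the filter only through one fraction, so they had to be without overlap, and all of them are among the 1126 and the 216. Without them, 943 of 7099 transcripts (13.3%) lay wholly higher and 189 (2.66%) wholly lower. Among the 4085 alone, 655 (16.0%) lay wholly higher and 150 (3.67%) wholly lower. Just 1 transcript had at least 10 TPM in every disome library and under 1 TPM in every 80S library, and 0 had the reverse. Among the 4085, the median differences were 0.57, 0.63 and -0.03 in cultures 1, 2 and 3, close to those of all tested transcripts.

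The remaining WT fractions, whose libraries the comparison did not use, were read for the same transcripts. The labels name the polysome fractions Polysome1 and Polysome2 without saying which is heavier. The 216 transcripts lower in disome were also low in both. Their median difference between Polysome2 and Input, the unfractionated RNA, was -1.11, -1.35 and -0.59 in cultures 1, 2 and 3, against 0.40, 0.12 and 0.44 over all tested transcripts. In Polysome1 it was -0.75, -0.71 and 0.21, against 0.78, 0.58 and 0.76. In each culture the 216 lay below all transcripts in both polysome fractions. In 40S, the fraction of the small ribosomal subunit, they lay above, at 0.51, 0.43 and -1.77 against -0.98, -1.04 and -2.61. The 150 of them that reached 10 TPM in all 6 libraries had Polysome2 medians of -0.93, -1.16 and -0.35, against 0.49, 0.15 and 0.64 over the 4085 such transcripts, and 40S medians of 0.55, 0.50 and -2.17 against -0.79, -0.89 and -2.47.

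The 1126 transcripts higher in disome lay above all tested transcripts in the polysomes, by a smaller margin. Their medians in Polysome1 were 1.14, 0.97 and 0.93, and in Polysome2 0.60, 0.27 and 0.69. The 655 of them that reached 10 TPM in all 6 libraries had Polysome2 medians of 0.65, 0.27 and 0.77, against 0.49, 0.15 and 0.64 over the 4085. In 40S they were at -1.30, -1.33 and -2.51, below all transcripts in cultures 1 and 2 and slightly above them in culture 3. Culture 3 differed from the others in the 40S library as well, where the median of every group was more than 1 below that of cultures 1 and 2. Fractions with the same replicate number were treated as parts of the same culture and not as independent cultures. The labels do not say whether they came from the same cells and gradient.

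**Figure D3:**
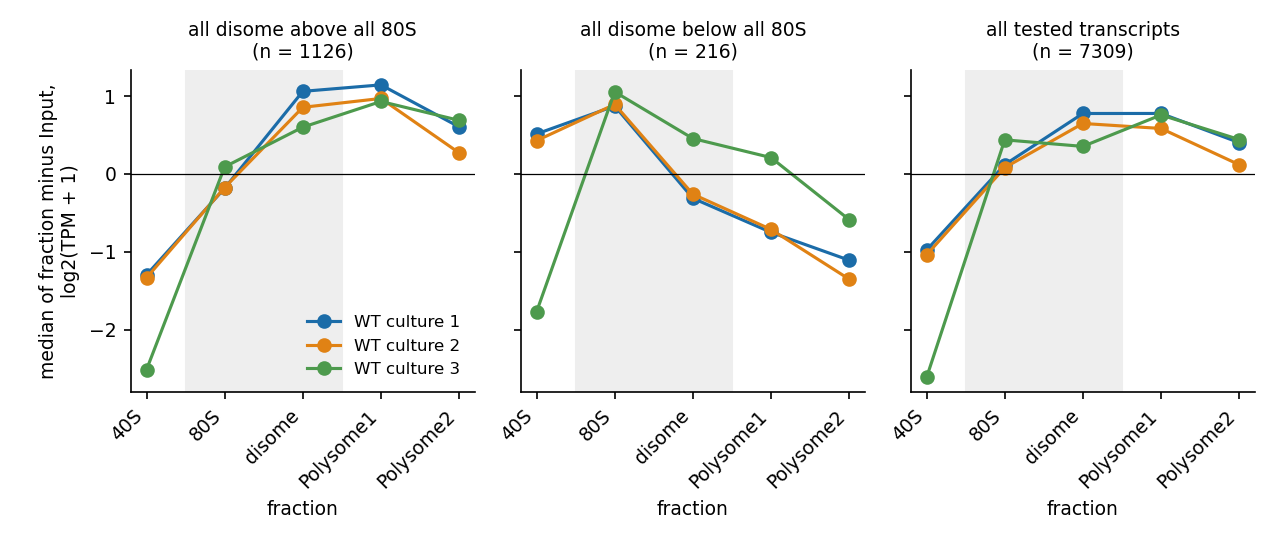
Median difference of each fraction from Input on the log2(TPM + 1) scale (vertical axis) in each fraction (horizontal axis), for 1126 transcripts with all disome values above all 80S values, 216 with all below, and all 7309, with 1 line for each WT culture. Grey marks the 80S and disome fractions that chose the groups; outside it, the 216 lie between -1.35 and -0.59 in Polysome2 while all transcripts lie between 0.12 and 0.44.

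The same transcripts and Polysome2 values were then arranged the other way, with transcripts divided by their polysome level first. This is another view of the relation above and not a second observation of it. In 5 bins of about equal size by the mean WT difference between Polysome2 and Input, the share with disome wholly below 80S was 8.82%, 3.61%, 1.72%, 0.410% and 0.205% from the lowest to the highest bin. The share wholly above was 10.5%, 13.9%, 16.0%, 17.6% and 18.9%. The decline of the lower share from the first bin to the last was also present in median-of-ratios values, at 15.2% and 3.01%, in quantile-normalized values, at 15.0% and 2.60%, in ERCC-scaled values, at 2.19% and 0%, and without culture 3, at 21.9% and 2.60%. The higher share was also larger in the last bin than in the first in ERCC-scaled values, at 16.1% and 24.3%, and without culture 3, at 42.3% and 57.7%, although there it was largest in bins 3 and 4, at 69.4% and 69.5%. In median-of-ratios values the first and last bins differed little, at 5.47% and 6.09%, as in quantile-normalized values, at 5.68% and 5.75%. Among the 4085 transcripts at 10 TPM or more in all 6 libraries, the lower share was 10.8% in the first and 0.220% in the last bin, and the higher share was 12.4% and 16.5%, with its largest value, 19.4%, in bin 4. Across all transcripts the relation was weak, and Pearson's r between the Polysome2 difference and the disome difference was 0.05, 0.26 and 0.19 in cultures 1, 2 and 3 (n = 7309, a description).

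**Figure D4:**
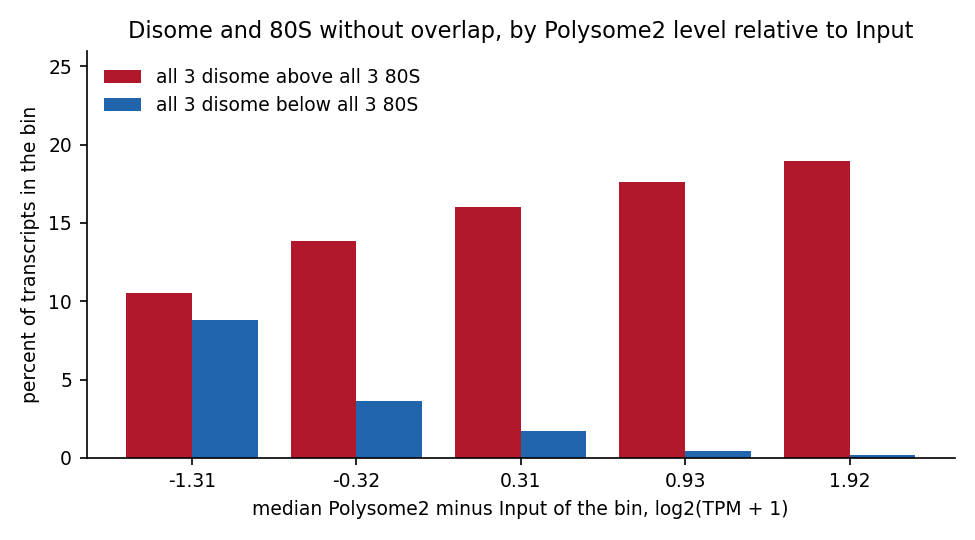
Percent of transcripts in each bin (vertical axis) whose 3 WT disome values lay all above (red) or all below (blue) the 3 WT 80S values, in 5 bins labelled by their median Polysome2 minus Input difference on the log2(TPM + 1) scale (horizontal axis). The blue share falls from 8.82% to 0.205% and the red share climbs from 10.5% to 18.9% in TPM as deposited; the climb was not present in median-of-ratios or quantile-normalized values.

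Abundance in the whole cell was taken from the WT Input libraries. In 5 bins by Input level the median disome difference of culture 1 was 0.20, 0.54, 0.75, 0.81 and 0.63 from low to high. In culture 2 it was 0.74, 0.57, 0.68, 0.71 and 0.60, and in culture 3 it was 0.09, -0.01, -0.02, -0.07 and -0.09. The medians of cultures 1 and 2 were thus above 0 at every Input level, and those of culture 3 stayed within 0.09 of 0. Of the 216 transcripts wholly lower in disome, 90 were in the highest Input bin, above 67.2 TPM, where they made up 6.16% of the bin, against 1.16% to 3.49% in the other bins.

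The transcripts most abundant in the 6 libraries went against the majority in cultures 1 and 2. A group of 87 transcripts had a mean of at least 2000 TPM over these same libraries. A high level in either fraction could bring a transcript in, so the values describe the group as chosen. The highest bin by Input level, which the comparison did not use, had medians of 0.63, 0.60 and -0.09 in cultures 1, 2 and 3. The 87 transcripts took 26.1%, 26.6% and 39.0% of TPM in the disome libraries, against 40.8%, 41.5% and 40.3% in the 80S libraries. Their median difference was -1.03, -0.74 and -0.04 in cultures 1, 2 and 3, where all tested transcripts had 0.62, 0.66 and -0.03. Of the 87, 29 lay wholly lower in disome, 6 wholly higher and 52 overlapped, where the shares over all tested transcripts were 2.96% lower and 15.4% higher. At an unadjusted p under 0.05 in limma, 19 were lower and 5 higher, beside 1.37% and 13.5% of all tested transcripts, and 0 passed after adjustment over all 7309. Among the 87, the wholly lower and wholly higher ones numbered 18 and 9 in quantile-normalized values, 32 and 3 in median-of-ratios values and 8 and 5 in ERCC-scaled values. Over all 7309 these counts were 456 and 504, 502 and 484, and 38 and 1558 in the same order. The rescaled values come from the libraries that chose the 87, so they too describe the group only.

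The order of these 87 transcripts by their difference was also more alike between cultures. Pearson's r of the difference was 0.760 between cultures 1 and 2, 0.447 between 1 and 3 and 0.510 between 2 and 3, over 87 transcripts. Over the 1133 transcripts with a mean of at least 100 TPM the same values were 0.506, 0.148 and 0.289, and over all 7309 they were 0.252, 0.087 and 0.192. Different cultures share no library, and these are descriptions over transcripts. Of the 10 most abundant transcripts by mean, 6 were common to disome and 80S, as were 80 of the top 100.

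Among the 87, the 2 with the largest difference in each direction and no overlap were chosen after their values were seen. Their p-values come from the libraries that chose them, so they are no support for the choice. The p-values under 0.05 below also needed culture 3 left out. Without culture 1 none of the 4 passed, and without culture 2 the limma adjusted p of each was 0.9992. In the 4 compared libraries of cultures 1 and 2 alone it was 0.08604 for each. ENST00000451311.6 had 29069, 23134 and 16133 TPM in the disome libraries of cultures 1, 2 and 3, against 7082, 4961 and 8467 TPM in the 80S libraries. Every disome value was above every 80S value, and culture 3 had the lowest disome and the highest 80S level. The log2 difference was 1.73 (SE 0.40), with a limma adjusted p of 0.1018, and 2.13 without culture 3 (limma adjusted p = 0.003028). Its mean was 22779 ± 6475 TPM in disome, 13973 ± 2583 TPM in Polysome1, 6837 ± 1766 TPM in 80S, 6017 ± 642 TPM in Input, 2379 ± 256 TPM in Polysome2 and 1420 ± 811 TPM in 40S (SD, n = 3 each). The disome level was the highest of the 6 fractions in each culture.

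ENST00000233143.5 had 11837, 12535 and 10436 TPM in the disome libraries, against 4155, 4192 and 5422 TPM in the 80S libraries. The 3 cultures gave similar differences here, of 1.51, 1.58 and 0.94. The fitted log2 difference was 1.34 (SE 0.30, limma adjusted p = 0.1018), and 1.55 without culture 3 (limma adjusted p = 0.00173). It too was highest in disome, at 11603 ± 1069 TPM, with 5944 ± 347 TPM in Polysome1 and 1000.2 ± 69.0 TPM in Polysome2 (SD, n = 3 each).

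In the other direction, ENST00000361739.1 had 1579, 1467 and 4953 TPM in the disome libraries, against 7149, 9924 and 10835 TPM in the 80S libraries. The log2 difference was -2.02 (SE 0.47, limma adjusted p = 0.1018), and -2.47 without culture 3 (limma adjusted p = 0.002331). Its mean was 2666 ± 1982 TPM in disome and 9303 ± 1920 TPM in 80S, with 1032 ± 365 TPM in Polysome1, 627 ± 451 TPM in Polysome2, 21697 ± 9017 TPM in 40S and 20586 ± 5502 TPM in Input (SD, n = 3 each). Culture 3 had the highest disome value, below all 3 of the 80S values.

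ENST00000361899.2 had 1269, 861 and 1985 TPM in the disome libraries, against 4927, 6669 and 4703 TPM in the 80S libraries. The log2 difference was -2.05 (SE 0.75, limma adjusted p = 0.2391), and -2.45 without culture 3 (limma adjusted p = 0.003104). It had 546 ± 104 TPM in Polysome1, 288 ± 173 TPM in Polysome2 and 10397 ± 2339 TPM in Input (SD, n = 3 each). Both of these transcripts were lower in WT disome than in WT Input in each culture, while the first pair was higher in disome than in Input. None of the 4 changed sign under any of the alternatives tried. They were chosen for the same sign in every culture, so alternatives that left out a culture or the block could not reverse it. Only the other scalings and the fit with estimated library weights were free to do so.

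**Figure D5:**
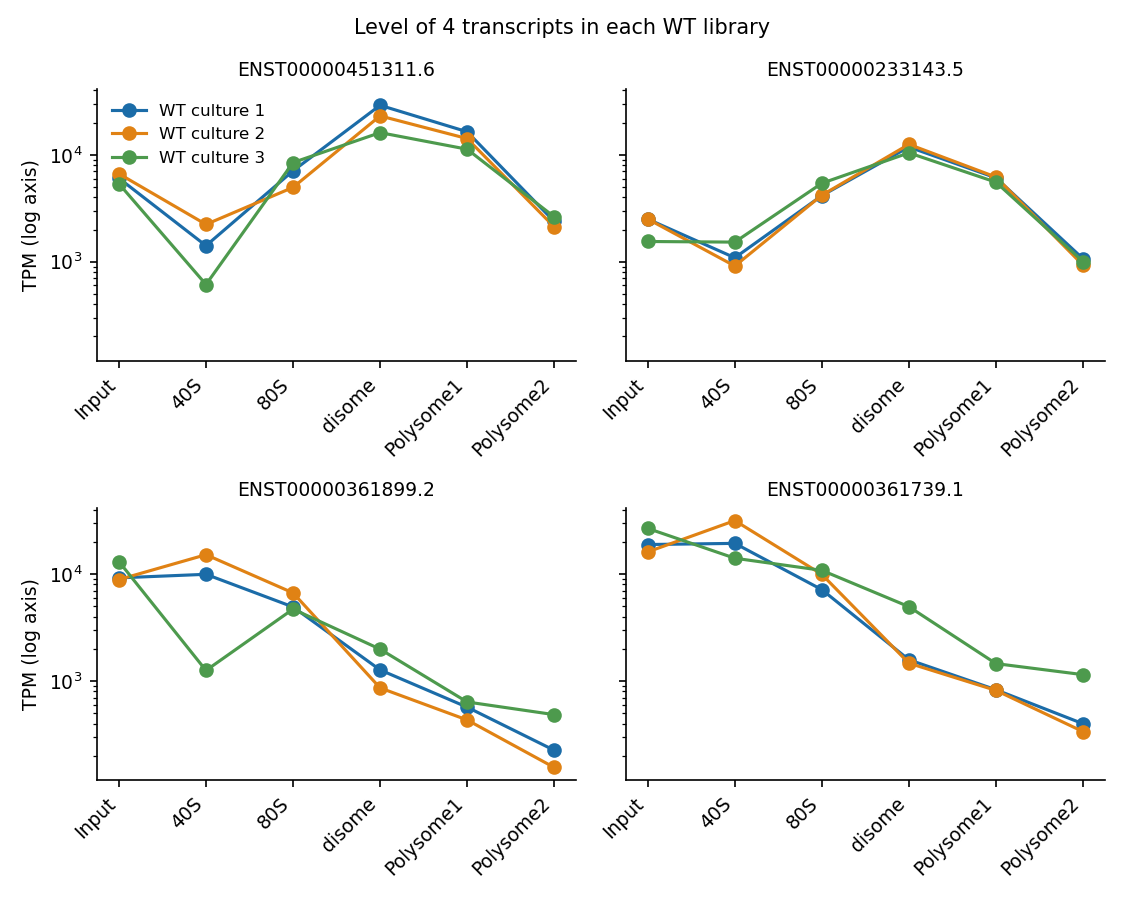
Level in TPM (vertical log axis) of 4 transcripts in every WT library (horizontal axis, by fraction), with 1 line for each culture. ENST00000451311.6 and ENST00000233143.5 peak in disome in each culture, and ENST00000361899.2 and ENST00000361739.1 are lower in disome than in 80S, culture 3 having the highest disome value of both.

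The KO cultures gave the same contrast in libraries of their own. The median difference between KO disome and KO 80S was -1.38, 0.15 and 0.24 in KO cultures 1, 2 and 3, against 0.62, 0.66 and -0.03 in the WT cultures. KO culture 1 stood apart, since 10 transcripts took 70.5% of TPM in its disome library, where the disome libraries of KO cultures 2 and 3 had 13.9% and 8.35%. Limma called 0 of 7309 transcripts (0%) between KO disome and KO 80S, with 26 higher and 82 lower at an unadjusted p under 0.05. Without KO culture 1 it also called 0, with 84 higher and 21 lower at an unadjusted p under 0.05. For the difference between genotypes, tested as an interaction over all 36 libraries, limma called 0 (0%), with 14 above and 595 below 0 at an unadjusted p under 0.05. Those numbers were 16 and 47 without culture 1 of both genotypes, 8 and 274 without culture 2, and 86 and 1708 without culture 3, where the smallest limma adjusted p was 0.08042.

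The 1126 transcripts wholly higher in WT disome had KO medians of -1.57, 0.31 and 0.32 in KO cultures 1, 2 and 3, against -1.38, 0.15 and 0.24 over all tested. The 216 wholly lower in WT disome had medians of -1.43, 0 and -0.14. In KO cultures 2 and 3 the medians of the 1126 lay above and those of the 216 below that of all transcripts. In KO culture 1 both groups lay below all transcripts, the 1126 further than the 216. The order of KO cultures 2 and 3 was also present there for the 655 and 150 at 10 TPM or more in all 6 WT libraries. Medians were 0.27 and 0.31 for the 655 and 0 and -0.14 for the 150, against 0.15 and 0.24 over the 4085. In KO culture 1 they were -1.66 for the 655, -1.61 for the 150 and -1.62 over the 4085, so the order was not kept. The 4 transcripts gave no pass of the test in KO. ENST00000451311.6 had a KO log2 difference of -0.90 (SE 0.69, limma adjusted p = 0.9998), with 313, 5158 and 6013 TPM in KO disome and 2808, 3948 and 5661 TPM in KO 80S. The interaction, KO minus WT, was -2.63 (SE 0.79, limma adjusted p = 0.5563). For ENST00000361739.1 the KO difference was -1.24 (SE 0.79, limma adjusted p = 0.9998), with culture values of -2.98, -0.05 and -0.69.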

How the data were processed

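The deposited table held TPM per transcript, made by the authors with kallisto and sleuth on build hg19, per the submitters' processing notes; versions and settings are not given in the sources used here. No column was left unused. The 92 ERCC rows were left out of the tests. A transcript was kept if 3 or more of the 6 libraries reached 10 TPM, and values were used as log2(TPM + 1), which understates differences of low transcripts. The limma model (limma 3.58.1, R 4.3.3) had 6 fraction means and culture as a block on the 18 WT libraries (10 residual degrees of freedom, variance trend, Benjamini-Hochberg adjustment, threshold 0.05). It was tested on simulated data. Its spread is shared by all WT fractions. KO and the interaction were fitted likewise on 18 and 36 libraries. The correlation of deviations from the group means between same-numbered disome and 80S libraries was 0.26, 0.26 and 0.65, all above 0.1, so by the rule used the numbers were taken to pair the libraries. Between cultures 1 and 2 the differently numbered pairs gave 0.30 and 0.40, so there the number does not mark the closer pair. Members, lists and rules were chosen with earlier results of these data known. The rule for named transcripts needed a pass of the test and named 0; 4 were chosen afterwards. The 22 planned gene lists, sums per gene and length comparison needed gene names and were not run. Single measures used exact permutation tests without the pairing by culture (scipy 1.17.1). Bins were quintiles. Figures were drawn with matplotlib 3.10.9.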

Additional observations from a re-analysis of the deposited data

How the results depend on the processing

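The count of 0 calls for WT disome against WT 80S stayed at 0 with no replicate block, with only the 6 libraries, with all 36 libraries, without the 40S and Input libraries, with a pseudocount of 0.1 TPM, after median-of-ratios scaling, after ERCC scaling, and in the 4 libraries of cultures 1 and 2 alone. It was 4 with a filter of 1 TPM (1 higher, 3 lower) and 10 with no filter (2 higher, 8 lower). Quantile-normalized values gave 7 (4 higher, 3 lower), and estimated library weights gave 3365. These weights were 0.20 for disome culture 3 and 6.215 for disome culture 2. In WT libraries outside the comparison they ran from 0.03 for 40S culture 3 to 6.66 for Polysome1 culture 2. Leaving out single cultures gave 0 to 2642 calls. In cultures 1 and 2 the count was 1221 with quantile-normalized values, 893 with median-of-ratios values, 5065 with ERCC-scaled values, 2315 with a pseudocount of 0.1 TPM, 2632 with no block by culture and 2749 without 40S and Input; these settings, the 4 libraries alone and all settings for transcripts without overlap were chosen after seeing the data. The median difference of all transcripts was -0.042 after median-of-ratios scaling and 0.98 after ERCC scaling, 0.0517 with no filter, -0.00428 and 1.58 in cultures 1 and 2, and 0.29 to 0.64 without single cultures. Transcripts wholly higher numbered 504, 484 and 1558 in quantile-normalized, median-of-ratios and ERCC-scaled values, 1531 to 4331 without single cultures, and 655 among those at 10 TPM in all 6 libraries. Those wholly lower numbered 456, 502 and 38, 445 to 719, and 150 in the same settings. For KO disome against KO 80S the count was 1 with only the 6 KO libraries and 0 otherwise, and the genotype difference gave 0 in all 6 fits. With no replicate block both counts were 0. The cause of these shifts was not tested. Sums per gene and the gene lists were not run, since no table here pairs the IDs with genes. The depth of the libraries is unknown.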
